A study of Mus musculus with 12 samples.

Results

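Loss of p62 from hepatocytes that keep both copies of Tsc1 was read from liver RNA of C57BL/6 mice, in 6 of the 12 libraries of the study. The members were chosen by their labels alone: 3 libraries of mice with floxed p62 alleles and no Cre recombinase (p62F/F, labelled as wild type) and 3 of mice with the same floxed alleles plus Cre driven by the promoter of albumin, a gene of hepatocytes (p62Δhep). Both lines had been backcrossed for at least 7 generations. The other 6 libraries, of mice whose Tsc1 was deleted in the same way (Tsc1Δhep) or together with p62 (Tsc1/p62Δhep), served only as the nearest comparison. The labels state no age and no diet for any animal, although the series names a low-fat and a high-fat one. Because p62F/F had no Cre, an effect of p62 loss and an effect of the Cre transgene cannot be told apart. Cells of the liver other than hepatocytes keep p62, and in whole liver fewer cells of a type and less RNA per cell cannot be told apart.

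The protein p62, encoded by Sqstm1, is a scaffold that carries ubiquitin-tagged cargo into autophagosomes, the vesicles of autophagy, and is itself degraded with that cargo. It also binds KEAP1, the adaptor that sends the transcription factor NRF2 to the proteasome, so that p62 that builds up can free NRF2 to switch on genes of quinone reduction, glutathione use and drug efflux. In liver p62 is further known as a component of the inclusion bodies that hepatocytes form under lasting stress, and as a protein that accumulates in damaged and precancerous hepatocytes.

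Total counts ran from 17539987 to 25273631 in the 6 libraries, and 14902 to 15360 genes had at least 1 count. All 6 libraries had the markers of hepatocytes at high level: the 15 marker genes in the table summed to 73800 to 103000 CPM, counts scaled to library size, in p62F/F and 63000 to 80500 CPM in p62Δhep, and the libraries were alike in carrying Y-linked transcripts and next to no Xist. On the first principal component, which held 46.5% of the variance, the groups were intermixed. Whether each library is its own animal is not stated in the labels, and the spread behind the p-values is therefore that of libraries. It exceeded counting error, with a chi-square of 73.8 to 281 per gene between libraries of a group, although part of it may be technical.

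With no Cre, Sqstm1 was at 316, 351 and 349 CPM, and after its deletion 17.5, 12.4 and 19.8 CPM were left. It fell 20.4-fold, with a log2 fold change of -4.35 ± 0.21 (SE) and an adjusted p of 0.000963 (edgeR's quasi-likelihood test, p adjusted by Benjamini-Hochberg over all genes). Tsc1, a brake on the growth kinase mTORC1, lay between 26.0 and 39.7 CPM in all 6 libraries with overlapping groups. Of 12567 genes tested, an adjusted p below 0.05 was reached by 2 lower genes (0.0159%) and by 0 higher ones (0%). At an unadjusted p below 0.05 there were 623 lower (4.96%) and 397 higher genes (3.16%), where 628 in all are expected of tests with no difference, and DESeq2 called 150 of its 13867 genes lower (1.08%) and 32 higher (0.231%). For 836 genes (6.65%) all 3 p62Δhep libraries lay below all 3 p62F/F libraries, and for 776 genes (6.17%) they lay above.

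The other called gene was Cbr3, a carbonyl reductase that detoxifies quinones and ketones and is transcribed by NRF2. It stood at 8.38, 7.79 and 6.01 CPM in p62F/F and at 0.856, 0.610 and 0.941 CPM in p62Δhep. It fell 9.05-fold (log2 fold change -3.18 ± 0.27, adjusted p = 0.0247 by edgeR). The call was lost when any library other than p62F/F 1 was left out, with adjusted p-values of 0.0561 to 0.132 in those 5 fits, while the log2 fold change stayed between -3.31 and -3.03. Its neighbour in the gene order and close relative Cbr1 was at 52.2, 66.4 and 60.2 CPM in p62F/F and 30.8, 33.0 and 35.8 CPM in p62Δhep, so that its groups did not overlap either. Its log2 fold change was -0.84 ± 0.12 and its adjusted p 0.233.

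The genes with the next smallest p-values were all lower in p62Δhep, and none passed the threshold of edgeR's adjusted p. Limd2, a small LIM domain protein, was at 22.8, 23.0 and 21.5 CPM in p62F/F and at 10.7, 11.3 and 10.8 CPM in p62Δhep, the tightest pair of groups among them (-1.03 ± 0.11 on the log2 scale, adjusted p = 0.0724). Myc, the growth-promoting transcription factor, was at 6.48, 8.37 and 8.88 CPM against 3.43, 2.87 and 2.99 CPM (-1.35 ± 0.21, adjusted p = 0.233). In the list of MYC and its targets 13 of 16 had a positive fold change and the median was 0.07, while 3 were lower without overlap (background 6.65%). Besides Myc these were the nucleolar proteins Npm1 (125, 141 and 133 CPM against 123, 114 and 109 CPM) and Ncl (228, 222 and 222 CPM against 204, 204 and 208 CPM). Camk1d, a calcium-activated kinase, was at 76.2, 65.6 and 89.5 CPM against 23.4, 36.3 and 21.2 CPM. Fam84b was at 21.6, 23.8 and 28.2 CPM against 10.9, 12.4 and 11.5 CPM, and Scn8a, a voltage-gated sodium channel, at 9.31, 16.6 and 15.9 CPM against 1.71, 3.84 and 2.29 CPM. Anxa13, an annexin that binds membranes in the presence of calcium, was at 2.94, 3.00 and 5.79 CPM against 0.504, 0.183 and 0.205 CPM, and Lrtm2 at 6.04, 2.91 and 1.95 CPM against 0.252, 0.427 and 0.287 CPM. Tceal8 was at 37.4, 34.3 and 31.1 CPM against 15.8, 9.45 and 13.9 CPM. In each of these genes the groups did not overlap, which the plot of the 12 genes by library shows.

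**Figure D1:**
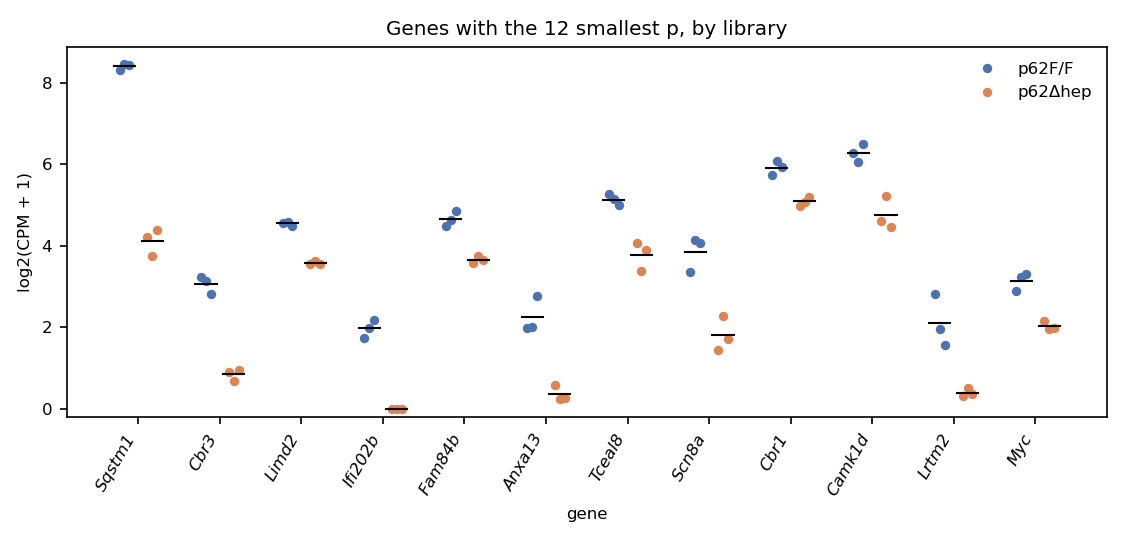
Level of the 12 genes with the smallest p in each library, as log2(CPM + 1) on the vertical axis, with p62F/F in blue, p62Δhep in orange and a bar at each group's mean of 3 libraries. Sqstm1 drops furthest among the abundant genes (316 to 351 CPM against 12.4 to 19.8 CPM), and in all 12 genes the p62Δhep libraries lie below every p62F/F library.

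Ifi202b, an interferon-inducible member of the HIN200 family that binds DNA, was read in p62F/F alone among the 4 groups. It had 2.34, 2.96 and 3.57 CPM in p62F/F, 175 counts in all, and 0 counts in each p62Δhep library, which against a floor of 3 counts for the whole group is at least 59.8-fold lower. Its adjusted p was 0.0756. It also had 0 counts in the 6 libraries of the Tsc1 mice, hence in all 9 libraries that carried Cre. Expression of this gene is known to differ between inbred mouse strains. Among the 20 tested genes on either side of it in the RefSeq gene order, 7 had p62Δhep below p62F/F without overlap (background 6.65%). In 2 p62Δhep lay above (background 6.17%). The neighbours of Sqstm1 counted 1 and 5 of 40 and those of Cbr3 1 and 2 of 40. The nearest of the 7 was Fmn2, an actin nucleator, with a log2 fold change of -1.64 and an adjusted p of 0.511. Whether the strain background differed between the groups was not tested.

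NRF2 target genes were lower in p62Δhep as a list, most of all the quinone and carbonyl reductases and the glutathione S-transferases. Of 43 genes in the list, all tested, 16 were lower at an unadjusted p below 0.05 (background 4.96%) and 1 was higher (background 3.16%). In 15 the groups did not overlap with p62Δhep lower (background 6.65%), and in 0 with p62Δhep higher. The median log2 fold change was -0.37, against 0.00 over all genes tested. The summed level of the list overlapped between groups, at 9330, 11200 and 10100 CPM in p62F/F and 10100, 7540 and 8930 CPM in p62Δhep. By the adjusted p only Cbr3 passed in edgeR, while DESeq2 called 12 of the list lower. Without each library in turn the count at an unadjusted p below 0.05 was 13 to 20. The plot of the list by role shows where its members fell.

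**Figure D2:**
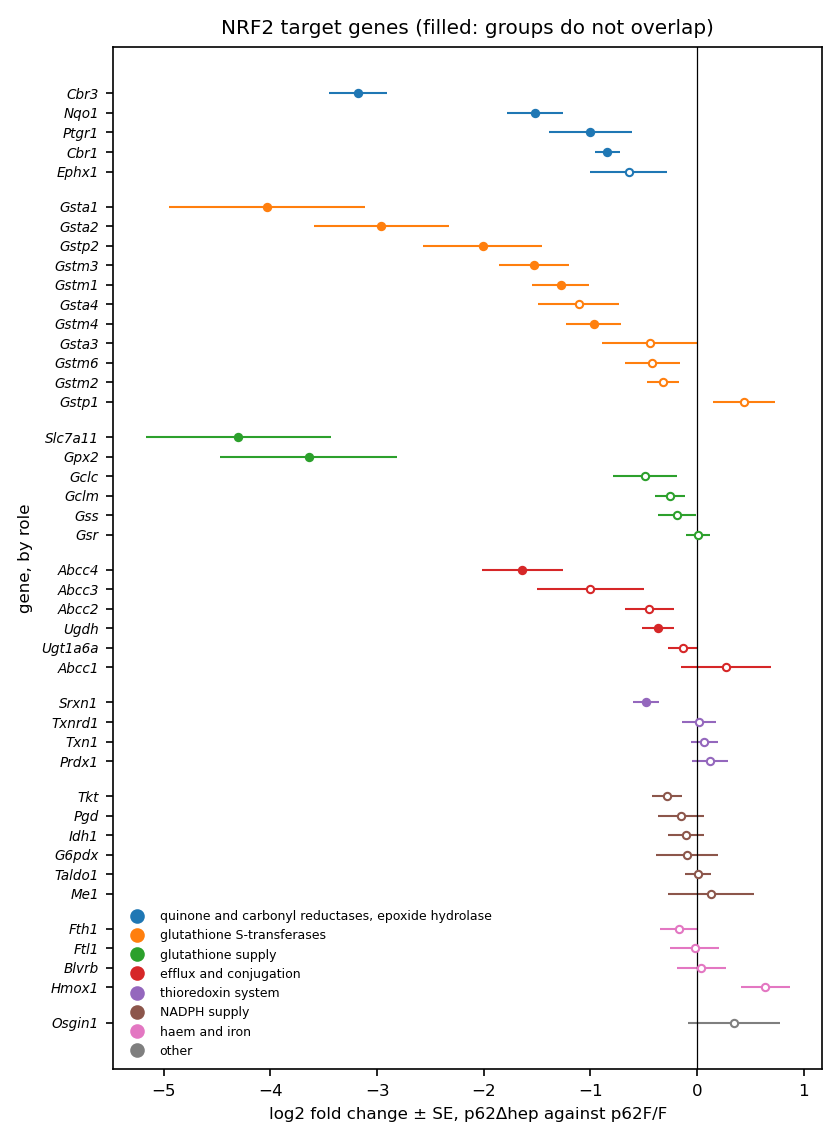
Log2 fold change of p62Δhep against p62F/F with its standard error for the 43 NRF2 target genes, grouped and coloured by role, with filled points where the 3 p62Δhep libraries do not overlap the 3 p62F/F libraries. Reductases and glutathione S-transferases have the lowest medians of the roles (-1.0 and -1.11), whereas the NADPH supply and haem and iron genes lie around 0 (medians -0.10 and 0.01). The single point furthest to the left is Slc7a11, a glutathione supply gene (-4.3).

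Among the 5 reductases and epoxide hydrolases, 4 had p62Δhep below p62F/F without overlap (background 6.65%). Nqo1, the quinone reductase most often read as a gauge of NRF2, was at 10.8, 15.9 and 8.83 CPM in p62F/F and at 4.89, 4.08 and 3.40 CPM in p62Δhep (-1.52 ± 0.26 on the log2 scale, adjusted p = 0.25 by edgeR). Ptgr1, which reduces lipid-derived aldehydes and prostaglandins, was at 5.17, 6.22 and 13.1 CPM against 2.82, 4.33 and 5.03 CPM (-1.0 ± 0.39). The microsomal epoxide hydrolase Ephx1 overlapped, at 133, 310 and 180 CPM against 185, 90.1 and 125 CPM.

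Of the 11 glutathione S-transferases, which couple glutathione to electrophiles, 6 had p62Δhep below p62F/F without overlap (background 6.65%). The median log2 fold change was -1.11. Gstm1, the one of these 6 with the most counts, was at 707, 1350 and 1110 CPM in p62F/F and 522, 409 and 371 CPM in p62Δhep (-1.28 ± 0.27, adjusted p = 0.307). Gstm3 was at 71.2, 59.4 and 131 CPM against 32.0, 36.9 and 22 CPM, and Gstm4 at 39.3, 64.1 and 56.3 CPM against 37.4, 23.5 and 20.8 CPM. In the alpha class Gsta2 was at 5.66, 19.7 and 11.6 CPM against 3.02, 0.732 and 0.982 CPM, whereas Gsta3, of the same class, overlapped at 580, 1200 and 737 CPM against 1050, 431 and 370 CPM. The pi-class gene Gstp1 was at 787, 388 and 752 CPM against 1000, 726 and 881 CPM and was the single member with a positive fold change. These genes are close relatives of one another, and reads shared between them could have been assigned to the wrong member, so single values are uncertain.

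The genes that supply glutathione differed among themselves. Slc7a11, the cystine importer, was at 15.5, 9.54 and 3.09 CPM in p62F/F and at 0.453, 0 and 0.860 CPM in p62Δhep, and Gpx2, a glutathione peroxidase, at 2.83, 0.851 and 3.19 CPM against 0, 0.183 and 0.327 CPM. Neither passed the adjusted threshold of edgeR (0.297 and 0.329). Both passed the count filter only through p62F/F, so their direction was partly set by the filter. The enzymes that build and recycle glutathione itself overlapped between groups: Gclc, the catalytic subunit of the limiting ligase, lay at 236 to 417 CPM against 158 to 309 CPM, Gclm at 154 to 181 CPM against 126 to 159 CPM, and the reductase Gsr at 99.0 to 108 CPM against 104 to 105 CPM.

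Of the efflux and conjugation genes, Abcc4, a pump that exports organic anions and bile acids from the hepatocyte, was at 9.91, 5.87 and 3.57 CPM in p62F/F and at 2.12, 2.26 and 1.84 CPM in p62Δhep (-1.64 ± 0.38, adjusted p = 0.332). Ugdh, which makes the sugar donor for glucuronidation, was at 217, 220 and 207 CPM against 183, 178 and 140 CPM. In the thioredoxin system 1 of 4 genes was lower without overlap (background 6.65%). It was Srxn1, which repairs overoxidised peroxiredoxins, at 68.6, 77.3 and 63.7 CPM against 45.7, 51.9 and 53 CPM. All 6 genes that supply NADPH overlapped between groups. Hmox1, the haem oxygenase, was the list member with the opposite direction at an unadjusted p below 0.05, at 37.4, 36.0 and 47.1 CPM in p62F/F and 42.5, 63.7 and 81.0 CPM in p62Δhep (0.64 ± 0.23, adjusted p = 0.560). Its groups overlapped, and macrophages, whose markers were higher in 2 p62Δhep libraries, also make it. The part of macrophages in the Hmox1 values was not tested.

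As a list, the regulators of the pathway gave no such difference in their own RNA. Nfe2l2, which encodes NRF2, was at 57.7, 87.9 and 82.6 CPM in p62F/F and at 81.0, 66.0 and 74.1 CPM in p62Δhep. Keap1 was at 66.0, 64.7 and 64.6 CPM against 61.7, 70.4 and 70.5 CPM. Of the 11 regulators, 0 had an unadjusted p below 0.05 in edgeR and 0 were called by DESeq2. In 1, or 9.09% against a background of 6.65%, p62Δhep lay below p62F/F without overlap. This was the ubiquitin ligase adaptor Btrc (16.8, 17.6 and 16.8 CPM against 16.3, 16.2 and 12.9 CPM). The list median was -0.03. Maff, a small MAF protein, had the largest fold change of the list, with overlap. It was at 3.59, 10 and 10.3 CPM against 2.97, 2.87 and 5.77 CPM (-1.03 ± 0.45, adjusted p = 0.619 by edgeR).

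The antioxidant response element, the short DNA word that NRF2 reads with a small MAF protein, was searched for by its core letters TGACNNNGC on both strands in the window from 250 bases before to 50 after each annotated start (RefSeq, GRCm38.p6). It was found for 11 of the 37 list members with a promoter in the table, against 14.0% of all 27025 genes in it, and for 3 of the 15 that were lower without overlap. The matches of those 3 are shown here 5′ to 3′ in the orientation of the motif, with the fixed letters in capitals.
Abcc4 (first match): TGACcccGC
Abcc4 (second match, at another annotated start): TGACtctGC
Srxn1: TGACctaGC
Ugdh (first match): TGACttaGC
Ugdh (second match): TGACcacGC
Cbr3 and Nqo1 held no match in this window, and the letters alone do not mark a bound site.

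The other cargo receptors of autophagy were compared with p62 itself, since several carry overlapping cargo. Of 16 receptors 2 were lower without overlap (background 6.65%), Sqstm1 itself and Fam134b, an endoplasmic reticulum receptor. In 1, Ncoa4, the receptor for ferritin, p62Δhep lay above (background 6.17%). The other 13 overlapped, with a list median of -0.01. Apart from Sqstm1 itself, these counts lay near the background. Nbr1, the receptor most like p62, was at 267, 254 and 248 CPM in p62F/F and at 278, 303 and 262 CPM in p62Δhep, and Optn at 69.7, 96.0 and 61.8 CPM against 116, 79.6 and 72.3 CPM. Fam134b was at 70.4, 74.0 and 82.6 CPM against 57.9, 61.0 and 40.5 CPM and Ncoa4 at 53.2, 60.2 and 53.9 CPM against 68.9, 75.7 and 62.2 CPM, with adjusted p-values of 0.511 and 0.591 by edgeR. Of 27 core autophagy genes 0 had an unadjusted p below 0.05 and 0 were called by DESeq2. Among 8 signalling partners of p62, Prkcz, an atypical protein kinase C that binds it, was at 22.3, 23.3 and 19.2 CPM against 33.7, 27.4 and 35.4 CPM (0.57 ± 0.14, adjusted p = 0.343). Of 14 genes of the TSC and mTOR complexes 0 had an unadjusted p below 0.05 in edgeR and 0 were called by DESeq2.

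Genes of the endoplasmic reticulum stress response were higher in p62Δhep as a list. This response reads unfolded protein in the reticulum through membrane sensors and raises chaperones, folding enzymes and the machinery that pulls misfolded protein out for destruction. Of 31 genes, all tested, 15 were higher at an unadjusted p below 0.05 (background 3.16%) and 0 lower, and in 15 the groups did not overlap with p62Δhep higher (background 6.17%). The median log2 fold change was 0.67 against 0.00 over all genes. None passed edgeR's adjusted threshold, while DESeq2 called 10 of them higher. Without each library in turn the count at an unadjusted p below 0.05 was 11 to 19.

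Many genes of this list share a promoter word, the endoplasmic reticulum stress element, a CCAAT box and a CCACG box set 9 bases apart, which the cleaved sensor ATF6 reads together with the CCAAT factor NF-Y. Searched on both strands in the same window as the box CCAAT, then 9 bases of any kind, then the box CCACG, it was found for 9 of the 27 members with a promoter in the table, against 0.137% of all 27025 genes there. In 7 of these 9 genes the p62Δhep libraries lay above the p62F/F libraries without overlap, as in 14 of all 27 members (background 6.17%). Whether the element bears on the difference was not tested. The elements are shown in the orientation of the motif, 5′ to 3′, with its fixed letters in capitals, because the spacing is shared while the letters between the boxes differ.
Derl3: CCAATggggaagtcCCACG
Creld2: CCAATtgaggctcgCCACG
Syvn1: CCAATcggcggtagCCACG
Hspa5: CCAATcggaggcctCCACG
Hsp90b1 (upstream): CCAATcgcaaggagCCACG
Hsp90b1 (downstream): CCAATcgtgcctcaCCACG
Dnajc3: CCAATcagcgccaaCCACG
Pdia6: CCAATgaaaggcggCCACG
Calr: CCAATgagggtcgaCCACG
Canx: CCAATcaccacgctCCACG

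The 250 bases before the start of 2 of these genes show where the element sits (RefSeq, GRCm38.p6, strand of the gene, element in capitals as it reads on that strand). Derl3 had the largest fold change of the list, and Hspa5 the most counts. In Hspa5 the element begins 65 bases before the start and in Derl3, where it runs in reverse, 156 bases before it.
Derl3 (chr10:75893148-75893397, plus strand): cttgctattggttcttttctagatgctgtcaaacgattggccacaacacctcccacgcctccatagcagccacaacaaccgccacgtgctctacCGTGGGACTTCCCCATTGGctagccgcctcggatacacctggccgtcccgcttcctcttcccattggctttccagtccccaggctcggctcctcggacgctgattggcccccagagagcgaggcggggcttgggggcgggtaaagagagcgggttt
Hspa5 (chr2:34771840-34772089, plus strand): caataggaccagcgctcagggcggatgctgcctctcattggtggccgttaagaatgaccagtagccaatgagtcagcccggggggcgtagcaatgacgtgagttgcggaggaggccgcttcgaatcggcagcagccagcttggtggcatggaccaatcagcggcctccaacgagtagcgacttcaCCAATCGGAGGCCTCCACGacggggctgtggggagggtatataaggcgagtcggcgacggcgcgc

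Derl3, a subunit of the channel that moves misfolded protein out of the reticulum, was at 2.18, 4.21 and 4.60 CPM in p62F/F and at 19.6, 18.3 and 52.1 CPM in p62Δhep. It was the largest positive fold change of all genes tested, 3.03 ± 0.49 on the log2 scale, with an adjusted p of 0.233 by edgeR and of 7.98e-09 by DESeq2. Its partner in that task Syvn1, a ubiquitin ligase of the reticulum, was at 132, 117 and 131 CPM against 195, 395 and 482 CPM (1.49 ± 0.31, adjusted p = 0.307 by edgeR). Sel1l, which holds that ligase complex together, was at 250, 188 and 225 CPM against 281, 519 and 420 CPM, and Herpud1, which assembles around it, at 236, 351 and 305 CPM against 448, 478 and 598 CPM. Of the 7 degradation genes 4 were higher without overlap (background 6.17%) and the median was 0.77.

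All 15 chaperones and folding enzymes had a positive fold change, with a median of 0.83, and 10 were higher without overlap (background 6.17%). Hspa5, the master chaperone of the reticulum also called BiP, was at 1720, 1440 and 2000 CPM in p62F/F and at 2010, 4090 and 4010 CPM in p62Δhep (0.97 ± 0.32, adjusted p = 0.511). Creld2 was at 71.0, 53.6 and 82.9 CPM against 89.6, 261 and 400 CPM (1.85 ± 0.49), Sdf2l1 at 66.3, 47.6 and 84.4 CPM against 85.0, 210 and 251 CPM, and Manf at 211, 217 and 236 CPM against 260, 499 and 543 CPM. In these genes p62Δhep library 1 stood just above the highest p62F/F library, while libraries 2 and 3 stood far above it. Library 1 was the lowest of its group in 14 of the 15 genes with an unadjusted p below 0.05, as the plot of those genes shows.

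**Figure D3:**
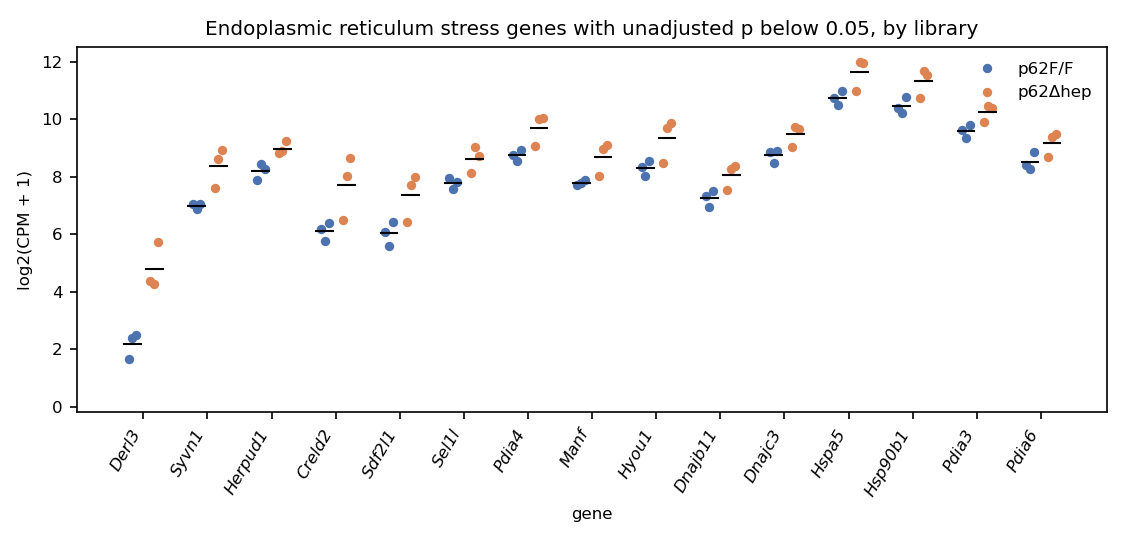
Level of the 15 endoplasmic reticulum stress genes with an unadjusted p below 0.05 in each library, as log2(CPM + 1), with p62F/F in blue, p62Δhep in orange and a bar at each group's mean of 3 libraries. The orange points split, with library 1 (drawn first) lowest of its group in 14 of the 15 genes. In Derl3 all 3 lie well above the p62F/F libraries (18.3 to 52.1 CPM against 2.18 to 4.60 CPM).

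The sensors and transcription factors of the response had smaller fold changes than the chaperones. Of 9 such genes 0 had an unadjusted p below 0.05 in edgeR and 0 were called by DESeq2, with a median of 0.20. Xbp1, spliced by the sensor IRE1 to give an active factor, was at 341, 256 and 326 CPM in p62F/F and 366, 426 and 398 CPM in p62Δhep, without overlap. Atf4, the factor made when translation is held back, was at 121, 84.5 and 94.4 CPM against 79.6, 105 and 107 CPM, and its partner in cell death Ddit3 at 8.66, 7.34 and 13.4 CPM against 11.3, 13.7 and 13 CPM. Among 15 targets of ATF4, 3 were lower at an unadjusted p below 0.05 (background 4.96%) and 0 higher (background 3.16%). They were the serine synthesis genes Phgdh (1.42, 2.60 and 5.36 CPM against 0.453, 0.427 and 0.123 CPM) and Psat1 (3.54, 13.4 and 9.10 CPM against 1.51, 2.44 and 3.77 CPM), and Slc7a11, which also stands in the NRF2 list. Phgdh and Slc7a11 passed the count filter only through p62F/F. Their direction was therefore partly set by the filter.

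Acute phase and macrophage genes split along the same p62Δhep libraries as the stress genes. The level of a list in a library is given as the median over its genes of log2(CPM + 1) minus the gene's mean of the 6 libraries. The stress list was at -0.28, -0.52 and -0.13 in p62F/F and at -0.16, 0.54 and 0.51 in p62Δhep. The 23 acute phase genes, which hepatocytes secrete during inflammation, were at 0.72, -1.29 and -0.17 against -0.79, 0.87 and 0.86, so p62F/F library 1 was high for them but not for the stress list. The 14 tested macrophage and Kupffer cell markers summed to 592 to 661 CPM in p62F/F and to 618, 976 and 979 CPM in p62Δhep, and the 6 neutrophil markers to 6.40 to 103 CPM and 4.94 to 77.1 CPM. No tested macrophage marker was at 0 in either group. Their part in the difference of the stress genes was not tested. Of the macrophage markers 3 were higher without overlap (background 6.17%): lysozyme Lyz2 (54.2, 74.5 and 76.1 CPM against 104, 101 and 148 CPM), the scavenger receptor Marco (7.84, 2.69 and 6.34 CPM against 8.56, 84.4 and 27.3 CPM) and the Kupffer cell lectin Clec4f (115, 116 and 112 CPM against 120, 203 and 175 CPM). Of the acute phase genes 1 was, Saa3, at 23.6, 20.5 and 16.9 CPM against 38.4, 62.7 and 255 CPM.

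**Figure D4:**
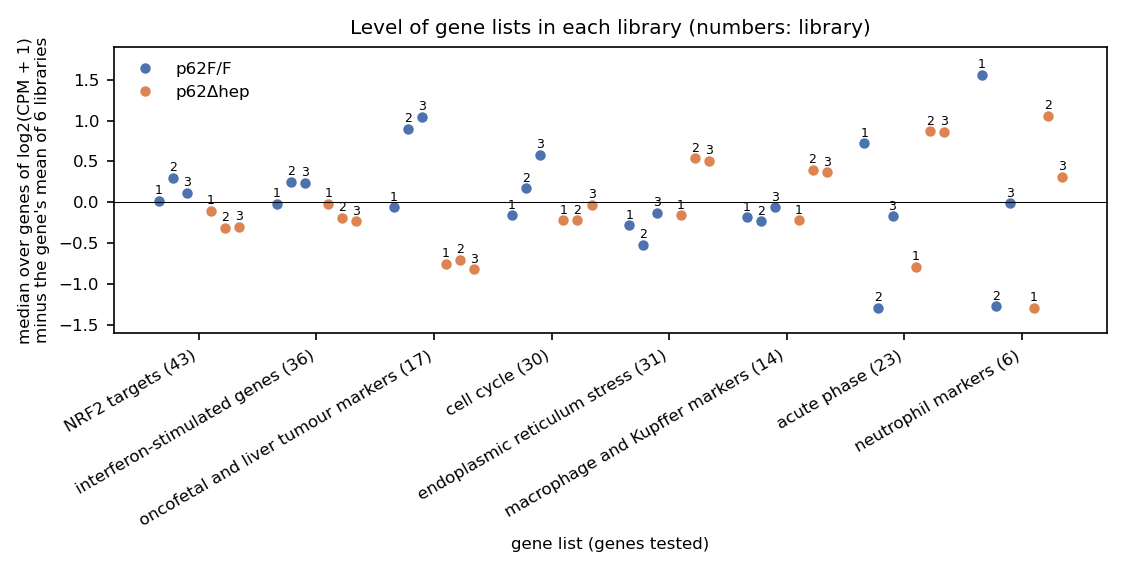
Level of 8 gene lists in each library, as the median over genes of log2(CPM + 1) minus the gene's mean of the 6 libraries, with the library's number above each point, p62F/F in blue and p62Δhep in orange. NRF2 targets and oncofetal markers have every p62Δhep library below every p62F/F library, whereas the stress, macrophage and acute phase lists are high in p62Δhep libraries 2 and 3 but not in 1.

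Interferon-stimulated genes were lower in p62Δhep as a list, by small amounts. Of 36 genes, all tested, 15 were lower at an unadjusted p below 0.05 (background 4.96%) and 1 higher, and in 15 the groups did not overlap with p62Δhep lower (background 6.65%). The median log2 fold change was -0.30, and DESeq2 called 3 of the list lower. The count at an unadjusted p below 0.05 dropped to 9 and 8 when p62F/F library 2 or 3 was left out, to 9 when p62Δhep library 3 was, and to 8 in the fit of all 12 libraries. Ifi202b is its lowest member also at its bound, so that the median does not depend on it. Of the 15, 9 were antiviral effectors, a set of 16 genes with a median of -0.44, and 4 were among the 9 sensors and factors, whereas of 7 interferon-induced GTPases 1 had p62Δhep lower without overlap.

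Irf7, the factor that amplifies the type I interferon response, was at 50.2, 60.8 and 57.2 CPM in p62F/F and at 38.1, 29.3 and 33.8 CPM in p62Δhep (-0.73 ± 0.13, adjusted p = 0.252 by edgeR). Ifi44 was at 7.84, 14.8 and 14.0 CPM against 6.65, 6.10 and 3.89 CPM, and Ifit1, which binds viral RNA caps, at 13.6, 25.0 and 17.3 CPM against 11.9, 6.58 and 9.17 CPM. Isg15, a ubiquitin-like modifier, was at 24.1, 31.4 and 29.7 CPM against 21.3, 18.9 and 21.6 CPM. The groups did not overlap in any of these 4 genes. Stat2, a subunit of the factor that drives them, had the opposite direction, at 77.2, 69.7 and 87.9 CPM against 96.6, 107 and 107 CPM.

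The core of the interferon-stimulated response element, searched on either strand as GAAA, then 2 bases of any kind, then GAAA again, was found for 17 of the 26 members with a promoter in the table, against 3.99% of all 27025 genes there. Overlapping copies of it are counted apart. The 250 bases before the start of 2 of these genes are given on the strand of the gene (RefSeq, GRCm38.p6) with the element in capitals, since they show 2 layouts. Isg15 holds 3 copies run together, and Ifit1 holds 2 that are apart and read in reverse.
Isg15 (chr4:156200819-156201068, minus strand): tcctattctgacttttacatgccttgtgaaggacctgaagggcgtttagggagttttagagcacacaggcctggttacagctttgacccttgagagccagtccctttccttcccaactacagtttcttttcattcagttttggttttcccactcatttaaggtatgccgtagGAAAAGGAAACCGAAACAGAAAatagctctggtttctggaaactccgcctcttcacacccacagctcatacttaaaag
Ifit1 (chr19:34640639-34640888, plus strand): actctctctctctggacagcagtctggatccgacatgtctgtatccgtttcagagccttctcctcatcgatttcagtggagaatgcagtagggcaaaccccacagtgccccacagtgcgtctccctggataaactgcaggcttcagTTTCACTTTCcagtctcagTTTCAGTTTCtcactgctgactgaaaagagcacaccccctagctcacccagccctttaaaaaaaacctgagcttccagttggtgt

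Oncofetal and liver tumour markers, genes of the fetal liver that return in damaged or transformed hepatocytes, had mostly negative fold changes, 14 of 17, while their summed level did not separate the groups: 2730, 833 and 2160 CPM in p62F/F and 429, 3280 and 2600 CPM in p62Δhep. Of the 18 listed, 17 were tested, 9 were lower at an unadjusted p below 0.05 (background 4.96%) and 1 higher, and 7 were lower without overlap (background 6.65%). The median log2 fold change was -2.19, and DESeq2 called 4 lower. Scd2, a fatty acid desaturase of fetal liver, was at 34.9, 119 and 185 CPM in p62F/F and at 13.5, 12.1 and 7.61 CPM in p62Δhep (-3.36 ± 0.58, adjusted p = 0.25 by edgeR). Akr1c18, a steroid reductase, was at 15.1, 66.1 and 78.0 CPM against 3.73, 0.305 and 1.56 CPM, and Tff3, a secreted trefoil peptide, at 13.4, 12.1 and 35.6 CPM against 2.37, 2.74 and 0.368 CPM. Spink3, a trypsin inhibitor, was at 1.74, 9.22 and 5.36 CPM against 0.353, 1.34 and 0.491 CPM.

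In some of these genes 1 or 2 of the p62F/F libraries held the high values. Afp, the alpha-fetoprotein, was at 1.42, 42.9 and 21.6 CPM in p62F/F and at 3.12, 0.610 and 2.50 CPM in p62Δhep, with overlap. The fetal noncoding RNA H19 was at 2.07, 104 and 476 CPM against 19.6, 0.244 and 4.50 CPM, also with overlap. Gpc3, the cell surface glypican, was at 2.83, 55.5 and 6.39 CPM against 2.42, 1.16 and 1.68 CPM. p62F/F library 1 had the lowest level of the list in its group, -0.06 against 0.90 and 1.05 in libraries 2 and 3, while the p62Δhep libraries lay at -0.75, -0.70 and -0.82. Without that library edgeR called 48 genes lower and 1 higher in place of 2 and 0, Scd2 and Akr1c18 among them. Of the 3 members with a positive fold change, the imprinted gene Peg3 was the one with an unadjusted p below 0.05, at 7.02, 7.16 and 7.47 CPM against 9.37, 12.6 and 9.01 CPM.

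The cell cycle list had 30 of 31 genes tested, a median of -0.54 and 28 genes with a negative fold change. At an unadjusted p below 0.05, 7 were lower (background 4.96%) and 0 higher (background 3.16%), and in 4 the groups did not overlap with p62Δhep lower, or 13.3% against a background of 6.65%. All were at low level: Cdc20, which starts the exit from mitosis, was at 1.03, 2.37 and 3.63 CPM in p62F/F and 0.655, 0.671 and 0.778 CPM in p62Δhep, and Mki67, the proliferation antigen, at 6.97, 8.15 and 17.3 CPM against 4.38, 4.39 and 5.98 CPM. The count of 7 rested on single libraries. It was 14 without p62F/F library 1, 3 and 2 without p62F/F libraries 2 and 3, and 4, 2 and 4 without p62Δhep libraries 1 to 3.

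Among genes of liver metabolism, those usually higher in female liver had a median of -2.16, although all 6 libraries had the Y-linked transcripts: 7 of 13 were tested, all 7 with a negative fold change, and 4 were lower without overlap (background 6.65%). Some of them, such as Cyp2c69 and Cyp3a44, passed the count filter only through p62F/F. The direction and the median of the 7 were therefore partly set by the filter. Cyp2a4 was at 42.0, 376 and 184 CPM in p62F/F and at 9.12, 0.914 and 2.42 CPM in p62Δhep (-5.59 ± 1.06, adjusted p = 0.293 by edgeR), and Cyp2c69 at 2.01, 11.2 and 8.61 CPM against 0.605, 0.122 and 0.368 CPM. The values within p62F/F spread more widely than those within p62Δhep, and p62F/F library 2 was the highest for both. Of 28 tested drug-metabolising cytochromes and receptors 5 were lower (background 4.96%) and 1 higher (background 3.16%) at an unadjusted p below 0.05, with a median of -0.58. The lower ones included Cyp2c40 (2.89, 14.3 and 8.07 CPM against 0.957, 0.914 and 0.409 CPM) and Cyp2a5 (135, 481 and 202 CPM against 128, 33.9 and 35.1 CPM), and the higher one was Cyp2b10 (1.63, 4.61 and 1.73 CPM against 5.74, 5.79 and 5.73 CPM). Reads of these cytochrome families too can be shared between relatives.

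In other metabolic lists few genes had groups without overlap. Of 17 bile acid genes 1 was lower (background 6.65%) and 1 higher (background 6.17%), and of 20 lipogenesis genes 2 were lower. Cyp7a1, the rate-limiting enzyme of bile acid synthesis, was at 132, 333 and 66.3 CPM in p62F/F and at 57.5, 14.9 and 4.95 CPM in p62Δhep (-2.78 ± 0.92, adjusted p = 0.511 by edgeR). Srebf1, the factor that drives fatty acid synthesis, was at 340, 208 and 226 CPM against 180, 137 and 110 CPM, and Cd36, a fatty acid transporter, at 130, 230 and 143 CPM against 113, 76.2 and 98.9 CPM. Of 19 cholesterol synthesis genes, 26 genes of fatty acid oxidation, 12 of gluconeogenesis and glycogen and 17 of the circadian clock, 0 had an unadjusted p below 0.05 in edgeR and 0 were called by DESeq2. Immediate early genes respond within minutes to stimuli that include the handling of tissue. Of 11 tested, 2 were lower without overlap (background 6.65%): Egr1 (12.6, 70.8 and 72 CPM against 7.20, 9.51 and 9.13 CPM) and Fos (3.27, 4.79 and 7.15 CPM against 1.66, 2.62 and 1.19 CPM).

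Markers of other liver cells were read for a change in the makeup of the pieces. Of 10 tested cholangiocyte and progenitor markers 2 were lower without overlap (background 6.65%), Prom1 (1.58, 4.93 and 13.2 CPM against 0.504, 1.10 and 0.614 CPM) and Tspan8 (10.1, 95.9 and 23.1 CPM against 5.69, 0.914 and 2.01 CPM). Of the 10, 8 had a negative fold change and the median was -0.71. Their sum was 288 to 506 CPM in p62F/F and 87.1 to 493 CPM in p62Δhep. The 10 stellate markers summed to 194 to 422 CPM against 266 to 404 CPM and the 10 endothelial markers to 199 to 273 CPM against 216 to 275 CPM, with medians of 0.17 and -0.02. Their part in the differences above was not tested.

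The same deletion in liver without Tsc1, Tsc1/p62Δhep against Tsc1Δhep, was the nearest comparison. It shares no library with the one above, and both of its groups carry Cre. In it 1886 of 12620 genes were lower (14.9%) and 1167 higher (9.25%) at an adjusted p below 0.05. In the interaction of the p62 effect with the Tsc1 background, fitted over all 12 libraries, 1233 of 13231 genes had the more positive fold change in Tsc1-intact liver (9.32%) and 894 the more negative (6.76%). Of 586 genes lower at an unadjusted p below 0.05 in Tsc1-intact liver and tested in both, 240 (41.0%) were called lower in Tsc1-deleted liver, where 13% of all 12100 genes tested in both were. Those 240 are a share of the 1569 called lower there. Of 383 genes higher in Tsc1-intact liver, 39 (10.2%) were called higher in the other, against 9.45% of all.

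NRF2 targets were lower in both backgrounds as a list, and the interaction called 9 of 43 as less negative in Tsc1-intact liver (background 9.32%) and 1 as more negative (background 6.76%). In Tsc1-deleted liver the list median was -0.60, and 16 of 43 were called lower (background 14.9%) and 1 higher. Cbr3 had 261, 133 and 30.7 CPM in Tsc1Δhep and 1.34, 1.57 and 0.454 CPM in Tsc1/p62Δhep, and the log2 fold change in Tsc1-intact liver was less negative by 3.8 ± 0.95 (adjusted p = 0.0207 by edgeR, and 0.0631 without p62Δhep library 3). The reductases and glutathione supply genes had the lowest medians of the roles, -2.78 and -1.51 in Tsc1-deleted liver. The glutathione S-transferases were the exception to this order, with a median of -0.42 there and -1.11 in Tsc1-intact liver. None of the 11 was called in the interaction.

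The list of endoplasmic reticulum stress had medians of opposite sign in the backgrounds, -0.41 in Tsc1-deleted and 0.67 in Tsc1-intact liver. In Tsc1-deleted liver 5 of the 31 were called lower (background 14.9%) and 1 higher (background 9.25%). Of the 15 chaperones edgeR called 0 there, with 4 lower and 1 higher at an unadjusted p below 0.05. The 7 genes of degradation had positive medians in both, 0.65 and 0.77. Across the list the interaction called 11 of 31 as more positive in Tsc1-intact liver (background 9.32%) and 0 as more negative. Derl3 was at 0.780, 1.76 and 0.516 CPM in Tsc1Δhep and 0.494, 0.393 and 0.390 CPM in Tsc1/p62Δhep, and its interaction was 4.35 ± 0.78 (adjusted p = 0.00501 by edgeR). Creld2 had 2.71 ± 0.74 (adjusted p = 0.0289) and Hspa5 1.73 ± 0.43 (adjusted p = 0.0204), of which both lost the call without some single libraries. Interferon-stimulated genes had negative medians in both, with a median of -0.96 and 16 of 35 called lower in Tsc1-deleted liver (background 14.9%). The plot of both fold changes shows the 3 lists.

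**Figure D5:**
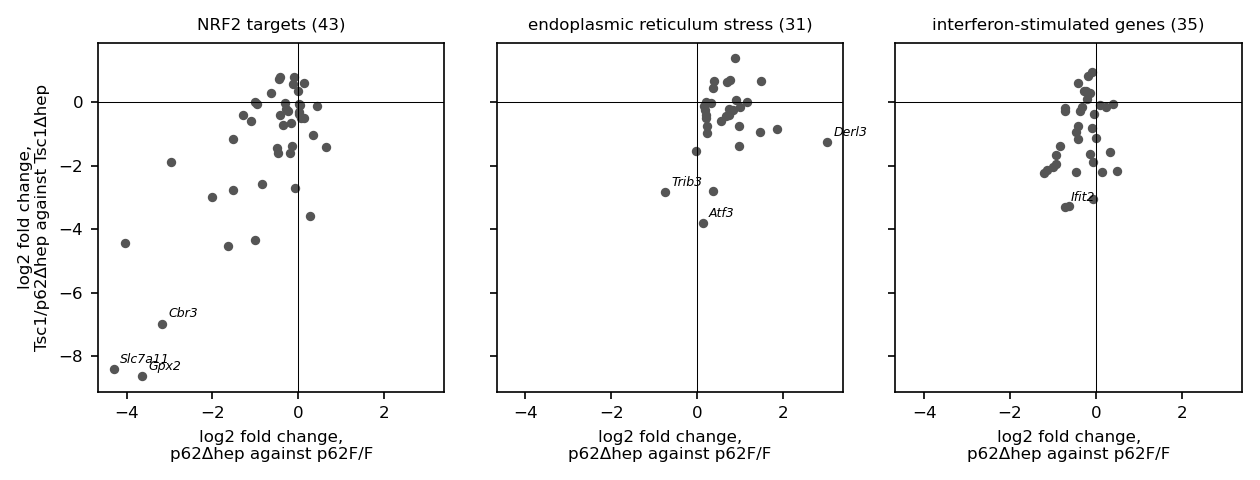
Log2 fold change of p62Δhep against p62F/F on the horizontal axis and of Tsc1/p62Δhep against Tsc1Δhep on the vertical axis, 1 point a gene, for NRF2 targets, endoplasmic reticulum stress genes and interferon-stimulated genes tested in both. Cbr3 lies far to the lower left (-3.18 and -6.97), whereas most stress genes lie right of 0 on the horizontal axis and around or below 0 on the vertical one (medians 0.67 and -0.41).

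The 6 genes with the smallest p in the interaction had log2 fold changes between -0.51 and 0.42 in Tsc1-intact liver, and none was called there. Cd44, a hyaluronan receptor found on precancerous hepatocytes, was at 16.2, 16.4 and 20.4 CPM in p62F/F and at 14.8, 31.8 and 24.5 CPM in p62Δhep, while it was at 72.4, 71.1 and 55.4 CPM in Tsc1Δhep and 4.24, 4.26 and 3.70 CPM in Tsc1/p62Δhep. Cyp1a2, a cytochrome of the cells around the central vein, was at 512, 432 and 378 CPM and at 425, 289 and 334 CPM, against 11.9, 28.4 and 28.0 CPM and 970, 848 and 733 CPM in the Tsc1-deleted groups. In both genes the p62Δhep and p62F/F libraries overlapped, whereas the Tsc1-deleted groups stood far apart. The values of each pair of groups are scaled within their own table.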

How the data were processed

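Poly(A) RNA of flash-frozen liver was measured in 12 libraries, and per the labels' protocols it was extracted with Trizol, prepared with a strand-directed kit and sequenced as single-end 75-nucleotide or paired-end reads. The values are counts per gene that the authors deposited in 2 tables of 6 libraries with no normalization. Aligner, counter and use of strand were not given in the sources used here. As build, hg19 is named by the submitters' processing notes, whereas the gene symbols are those of mouse, so no coordinate of the files' build was used. Of 23420 symbols 99.3% matched the mouse RefSeq table, and 27 names turned into dates are not named.

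Genes were kept with filterByExpr (at least 10 counts in 3 libraries after scaling, 15 in total) and scaled by TMM, and groups were compared with edgeR 4.0.16 (quasi-likelihood test, R 4.3.3) with Benjamini-Hochberg adjustment at 0.05 over all genes tested. A gene at low level could pass the filter through either group alone. Genes such as Ifi202b, Anxa13, Lrtm2, Slc7a11, Gpx2 and Phgdh passed it only through p62F/F, so their direction was partly set by the filter. The standard error is the log2 fold change divided by the square root of F. CPM uses the scaled library sizes, and log2 values use a pseudocount of 1. The interaction was a contrast of 1 model of all 12 libraries, in which any factor common to a table cancels. The steps were tested on simulated data. Replicates were not duplicates, with a chi-square of 73.8 to 281 per gene. Same-numbered libraries of the 2 groups did not deviate together (r = -0.42, -0.53 and 0.03), so the numbers were not treated as pairs. Depth limits precision, and the floor of 3 counts covers counting error only. Alternatives were RLE scaling, DESeq2 1.42.0, limma 3.58.1 on log2(CPM + 1), no filter, a replicate block, all 12 libraries in 1 fit, and each library left out.

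There were 42 gene lists, of which 32 genes stand in more than 1. The members and lists were chosen with earlier results of these data known. Named genes were Sqstm1, Tsc1, Alb, Nfe2l2, Keap1 and Myc, the 12 smallest p, the 4 smallest p of each list with at least 3 members at an unadjusted p below 0.05, the 6 smallest p of the interaction, and members of the NRF2 regulator, autophagy receptor and sex chromosome lists, not all of which appear in the text. Other genes named were chosen after their values were seen. Lists without a count in the text lay near the background or had few tested members.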

Additional observations from a re-analysis of the deposited data

Results flagged for a closer look

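The effect of p62 loss differed between Tsc1-intact and Tsc1-deleted liver by the interaction contrast of edgeR's quasi-likelihood test over all 12 libraries, for 894 genes with the more negative and 1233 genes with the more positive log2 fold change in Tsc1-intact liver. The interaction is given as the log2 fold change in Tsc1-intact minus that in Tsc1-deleted liver. Among the named genes it was 1.52 for Sqstm1 and 3.8 for Cbr3, both of which fell in each background. Mean Sqstm1 was alike after deletion, 16.6 CPM in p62Δhep and 17.1 CPM in Tsc1/p62Δhep, but not before it, 339 CPM in p62F/F and 1000 CPM in Tsc1Δhep. The interaction was 4.35 for Derl3, 2.71 for Creld2 and 1.73 for Hspa5, of the endoplasmic reticulum stress list, and 3.78 for the macrophage lysozyme Lyz2. The 6 genes with the smallest p had interactions of 4.40 for Ncoa7, 3.55 for Abr, 3.79 for Serpinb6a, -4.39 for Cyp2c67, 4.45 for Cd44 and -5.55 for Cyp1a2. Only p62F/F lacked Cre, and each background had its own table, so an effect of Cre and the Tsc1 background cannot be told apart in these values.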

How the results depend on the processing

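With 2 genes lower and 0 higher, DESeq2 gave 150 and 32, limma 4 lower, the fit of all 12 libraries 1 lower and the replicate block 1 lower, and leaving out each library in turn gave 1 to 48 lower and 0 to 1 higher (48 and 1 without p62F/F library 1). Sqstm1 passed in each of these fits. Cbr3 lost its call under the block, in the 12-library fit and without each library other than p62F/F 1. The interaction counts of 894 lower and 1233 higher became 368 and 543 with the replicate block, and 465 to 2401 lower and 676 to 2551 higher without each library, the highest without Tsc1Δhep library 3. Leaving out a library reduced its own group to 2, and the spread was pooled over the groups of the fit. Of 80 genes under 960 alternative fits, 887 kept direction and side of the threshold, 66 newly passed, 7 no longer passed and 0 changed sign. Of 333 alternative medians of 37 lists, 19 moved beyond the spread between libraries. The cause of these shifts was not tested. The counts of list members at an unadjusted p below 0.05 without each library, with RLE scaling, with no filter, with the block and in the 12-library fit were added after seeing the data. Same-numbered libraries did not correlate best with their own number.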

Other observations

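Chaperones of the cytosol were higher in p62Δhep in all 3 libraries, including library 1, which stood near p62F/F for the chaperones of the endoplasmic reticulum. Hsph1, a co-chaperone of HSP70, was at 95.6, 86.1 and 145 CPM in p62F/F and at 237, 218 and 216 CPM in p62Δhep (1.04 on the log2 scale, not called by edgeR). Hsp90aa1, the inducible HSP90, was at 310, 270 and 504 CPM against 657, 644 and 687 CPM. Chordc1, an HSP90 co-chaperone, was at 55.6, 51.8 and 67.0 CPM against 93.5, 102 and 92.2 CPM, and Stip1, which links HSP70 to HSP90, at 92.9, 94.2 and 127 CPM against 184, 158 and 180 CPM. The groups did not overlap in these 4 genes. Of 23 cytosolic heat shock genes, a set chosen after these values were seen and given with no test, 12 were higher without overlap and 0 lower (background 6.17% and 6.65%), with a median log2 fold change of 0.43. In Tsc1-deleted liver the median of the 22 tested was -0.11, with 0 called in either direction. Not all members shared the difference: the stress-inducible Hspa1a (2.40, 0.940 and 4.55 CPM against 1.36, 1.34 and 1.47 CPM) and Dnajb1 (35.2, 28.9 and 53.8 CPM against 49.7, 43.3 and 42.5 CPM) overlapped.

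Several basement membrane genes, another set chosen after the values were seen, were lower in p62Δhep without overlap, 5 of 21 tested (background 6.65%), with a list median of -0.13. Nid1, which links laminin to collagen IV, was at 30, 106 and 136 CPM in p62F/F and at 19.1, 19.4 and 17.1 CPM in p62Δhep, and Lama5, a laminin chain, at 4.90, 10.1 and 9.15 CPM against 2.47, 3.41 and 3.77 CPM. The collagen IV chains split: Col4a3 was at 3.16, 11.3 and 12.2 CPM against 0.705, 0.366 and 0 CPM and Col4a5 at 2.01, 5.15 and 7.47 CPM against 1.41, 0.793 and 0.409 CPM, whereas the widespread chains Col4a1 and Col4a2 overlapped, at 30.4 to 54.0 CPM against 33.6 to 60 CPM and at 18.0 to 31.0 CPM against 20 to 29.6 CPM.

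Tceal8, one of the 12 genes with the smallest p, lies on the X chromosome. Among the 20 tested genes on either side of it in the RefSeq order, 5 were lower without overlap (background 6.65%) and 0 higher (background 6.17%), namely Bhlhb9 and Wbp5 within 2 genes of it and Rnf128, Morc4 and Mid2 10 to 18 genes away. Around Cbr3, Sqstm1 and Ifi202b the same count gave 1, 1 and 7 lower and 2, 5 and 2 higher. The next gene, Bhlhb9, was at 1.74, 4.75 and 2.06 CPM in p62F/F and at 0.806, 0.488 and 0.409 CPM in p62Δhep, and the oncofetal marker Bex1, another member of this cluster, at 0.163, 5.06 and 4.39 CPM against 1.01, 0.0610 and 0.164 CPM, with overlap.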
